A study of Mus musculus with 6 samples.

Results

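Chemokine ligands are small secreted proteins that draw leukocytes along a gradient by binding receptors of the G protein-coupled family. They are sorted by the spacing of conserved cysteines into the CC, CXC, XC and CX3C classes, and their names follow that spacing. In lung, alveolar macrophages, epithelium, endothelium, fibroblasts, dendritic cells and platelets each make their own set, so the family reads out several cell types at once. The members described here were every mouse gene named Ccl or Cxcl with a number, plus Cx3cl1, Xcl1, Pf4 and Ppbp. There were 40 of them among the 25860 genes of the deposited count table: 23 CC, 15 CXC, 1 XC and 1 CX3C gene. Of the 40, 36 reached 10 reads over all libraries together and entered the test, as did 17231 genes in all. Cxcl3 had 9 reads and Cxcl11, a CXCR3 ligand, had 2, and no read was counted for Ccl1, a CCR8 ligand, or Ccl26, an eotaxin.

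RNA was taken from normal-looking lung of 12-month-old mice of 2 genotypes. The first group held 3 RAG1-/- mice (replicates 1, 2 and 3), which lack the recombinase needed for mature T and B cells but keep natural killer and myeloid cells. The second held 3 RAG1-/- Sgo1-/+ mice (replicates 4, 5 and 6), which also lack 1 copy of Shugoshin-1, a protector of centromeric cohesion, and served the study as a model of chromosome instability. By the labels the RAG1 loss is shared by all 6 mice, and no treatment was given. The mice were offspring of a RAG1 by Sgo1 cross on the C57BL/6 background, and each mouse gave 1 library of polyadenylated RNA. The study states for its mice as a whole that both sexes were used. Whole lung was read in bulk, so fewer cells of a type and less RNA per cell cannot be told apart. The comparison asks how chemokine transcripts differ between the 2 genotypes in tissue without visible change.

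Library totals ran from 3205822 reads on genes (replicate 6) to 9366774 (replicate 1). The level of 3 reads, taken as the smallest amount detected, was 0.320 to 0.936 CPM (reads scaled to the same total in each library). This floor covers counting error only. Several libraries stood apart. Igkc, an immunoglobulin light chain that RAG1-/- mice should not make, had 1853 reads in the library labelled RAG1-/- replicate 2, 8 in replicate 1 and 0 in the others, and the 10 B cell markers summed to 928 CPM there against 20.4 to 32.4 CPM elsewhere. Of these markers 9 were tested and 6 were lower in RAG1-/- Sgo1-/+ at an unadjusted P under 0.05, with 0 at the adjusted threshold. In replicate 6 the 11 alveolar macrophage markers summed to 7477 CPM against 727 to 1314 CPM in the other libraries. Chil3 alone gave 6083 CPM of that sum. Of the 11 markers 8 were highest in replicate 6, 3 of them at least 4-fold above every other library. Siglecf, at 6.24 CPM, lay below every RAG1-/- library, as it also did in replicates 4 and 5 (4.44 and 5.93 CPM). Xist, which marks cells with a silenced X chromosome, had 7717 reads in replicate 1 and 4 to 8 in the rest. By this gene replicate 1, a RAG1-/- library, looked female and the other libraries male, so sex was not balanced between the groups. Sex was not in the fit, and its part in the group differences was not tested. Sgo1 itself had 6, 2 and 4 reads in RAG1-/- against 6, 0 and 2 in RAG1-/- Sgo1-/+, so the missing copy could not be checked at this depth, and Rag1 had 8 to 24 reads in every library, which does not check a partial deletion.

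The classes can be read from the coding sequence. The stretches below, taken from the mouse GENCODE annotation, are shown for members on which the results turn, with the codons of the first cysteines in capitals. In the CC ligands Ccl22 and Ccl6 those codons are adjacent, in the CXC ligands Cxcl15 and Cxcl12 1 codon stands between them, in Cx3cl1 3 codons do, and Xcl1 has a single cysteine there. In Cxcl15 the capitals also take in the codons of glutamate, leucine and arginine just before the first cysteine, the ELR motif that marks CXC ligands of neutrophils. It was found in 6 of the 15 CXC members (Cxcl1, Cxcl2, Cxcl3, Cxcl5, Cxcl15 and Ppbp).
Ccl22, GRCm38 chr8:94746916-94746957, plus strand: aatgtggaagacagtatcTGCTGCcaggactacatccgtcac
Ccl6, GRCm38 chr11:83589368-83589409, minus strand: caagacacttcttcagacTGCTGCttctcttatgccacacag
Cxcl15, GRCm38 chr5:90795210-90795254, plus strand: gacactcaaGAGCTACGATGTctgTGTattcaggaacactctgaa
Cxcl12, GRCm38 chr6:117171490-117171534, plus strand: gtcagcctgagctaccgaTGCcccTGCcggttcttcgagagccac
Cx3cl1, GRCm38 chr8:94778033-94778083, plus strand: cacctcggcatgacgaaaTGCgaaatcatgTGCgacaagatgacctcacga
Xcl1, GRCm38 chr1:164932957-164932995, minus strand: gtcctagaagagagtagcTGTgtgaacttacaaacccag

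In the comparison of RAG1-/- Sgo1-/+ with RAG1-/-, 0 members passed the thresholds of an adjusted P under 0.05 and a 2-fold change by edgeR's quasi-likelihood test, as did 0.0% of the 17231 genes tested. DESeq2 and limma-voom called 0 members too. The adjusted P of the members ran from 0.832 to 0.990. At an unadjusted P under 0.05 there were 3 of 36 members, or 8.33%, and 5.66% of all genes tested. These 3 were Ccl22, Ccl24 and Cxcl17, each higher in RAG1-/- Sgo1-/+, where the background in that direction was 3.15%. No member was lower at that level, against 2.52% of all genes. The groups did not overlap in CPM for 2 of 36 members (5.56%), which lies under the 11.8% of all genes tested. Ccl22 was the member above (background 6.24%) and Ccl11 the member below (background 5.54%).

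Read across the family, 24 of 36 fitted changes lay above 0 (66.7%, and 54.9% of all genes tested), and the median log2 fold change was 0.36 for the members and 0.03 for all genes. That median fell to 0.05 without replicate 6 and stood at 0.60 without replicate 4. Replicate 6 held the highest CPM of 15 members, or 41.7%, whereas it held the highest CPM of 25.4% of all genes tested. Replicate 5 held the highest CPM of 9 members (25.0%, and 16.2% of all genes). The 2 libraries differed in which members they led. All 4 CCR2 ligands, 4 of the 7 genes Ccl3, Ccl4, Ccl5, Ccl6, Ccl9, Ccl11 and Ccl24, and 3 of the 5 tested ELR-bearing ligands were highest in replicate 6, and both tested CXCR3 ligands were highest in replicate 5. For the CCR2 ligand Ccl12 the lead of replicate 6 was close to a tie, at 1.25 against 1.21 CPM in replicates 3 and 4, on 4 reads.

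**Figure D1:**
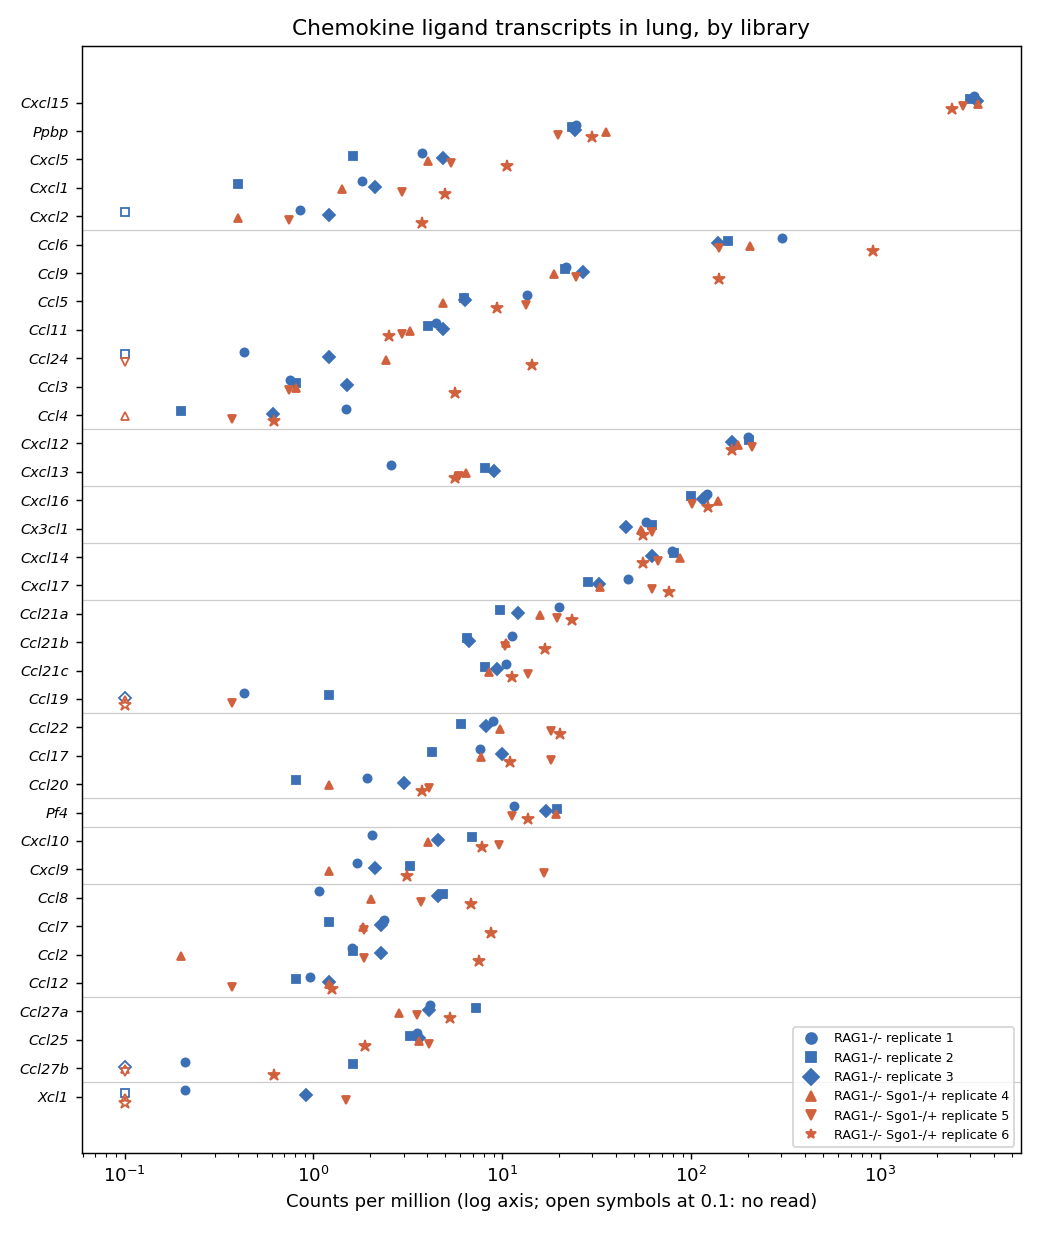
CPM (log axis) of the 36 chemokine ligands with at least 10 reads, grouped by role, with 1 symbol per library, RAG1-/- in blue and RAG1-/- Sgo1-/+ in orange; open symbols at 0.1 stand for no read. Cxcl15 lies between 2416 and 3292 CPM in every library, and the replicate 6 star lies far to the right for Ccl6, Ccl9 and Ccl24.

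The tested members ranged over several orders of magnitude. Per kilobase of the longest annotated coding transcript, Cxcl15 had the highest mean level, 1401 CPM per kb, and Ccl6 followed with 215 CPM per kb. Cxcl17, Cxcl16, Cxcl14 and Cxcl12 lay between 33.0 and 61.0 CPM per kb, and Pf4, Ccl21b, Ppbp, Ccl21a, Ccl17, Cx3cl1, Ccl5 and Ccl9 between 14.1 and 26.1 CPM per kb. All other members with a length were at 7.52 CPM per kb or less. These are means over 6 libraries, and without replicate 6 Ccl6 stood at 131 CPM per kb, still second, and Ccl9 at 7.53 CPM per kb. Cxcl15, Cxcl12, Cxcl14, Cxcl16 and Cx3cl1 varied by 1.27-fold to 1.56-fold between the lowest and highest library, whereas Ccl6 varied by 6.62-fold and Ccl9 by 7.50-fold.

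Cxcl15, also called lungkine, is a neutrophil-attracting ligand secreted by mouse airway and alveolar epithelium. It had 3151, 3004 and 3260 CPM in RAG1-/- and 3292, 2763 and 2416 CPM in RAG1-/- Sgo1-/+. The groups overlapped, with replicate 4 above every RAG1-/- library and replicates 5 and 6 below them. Its log2 fold change was -0.15 with an SE of 0.14 (adjusted P = 0.880 by edgeR's quasi-likelihood test), an interval of -0.44 to 0.13 at 2 SE. The gene took 57.8% of all member reads in replicate 6 and 76.3% to 81.6% in the other 5 libraries. The summed level of all members was 3619 to 4177 CPM, and the members other than Cxcl15 summed to 734 to 970 CPM in replicates 1 to 5 and 1761 CPM in replicate 6. With Ccl6 and Ccl9 also set aside the sums were 569 to 692 CPM in replicates 1 to 5 and 706 CPM in replicate 6, so these 2 genes made up most of the excess there. The 12 epithelial markers, on the same scale, summed to ranges of 83958 to 106857 CPM in RAG1-/- and 87430 to 106806 CPM in RAG1-/- Sgo1-/+. Scgb1a1 alone ran from 47501 CPM (replicate 3) to 72840.5 CPM (replicate 5), so the sum largely reads that gene. Over the list the median log2 fold change was 0.0, with 1 marker higher and 0 lower at an unadjusted P under 0.05 by edgeR.

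The other ELR-bearing ligands act on CXCR2 and are induced in inflamed tissue. Cxcl5, made largely by lung epithelium, had 3.74, 1.62 and 4.84 CPM in RAG1-/- and 4.04, 5.37 and 10.6 CPM in RAG1-/- Sgo1-/+. Cxcl1 had 1.81, 0.40 and 2.12 CPM in RAG1-/- and 1.41, 2.96 and 4.99 CPM in RAG1-/- Sgo1-/+. Both overlapped between groups, with replicate 2 lowest and replicate 6 highest. Cxcl2 followed that order with 8, 0 and 8 reads in RAG1-/- against 2, 4 and 12 in RAG1-/- Sgo1-/+, and Cxcl3 had 0 to 2 reads per library. Their log2 fold changes were 0.91 (SE 0.49) for Cxcl5, 1.02 (SE 0.69) for Cxcl1 and 1.06 (SE 1.10) for Cxcl2, with unadjusted P of 0.0939, 0.170 and 0.359 by edgeR. Of 10 neutrophil markers, 6 were tested and 3 were lower in RAG1-/- Sgo1-/+ at an unadjusted P under 0.05 (S100a9, S100a8 and Csf3r, adjusted P = 0.832 each), Ly6g and Mpo had no read, and the receptor Cxcr2 had 3.63, 2.83 and 3.93 CPM in RAG1-/- and 0.81, 2.96 and 3.74 CPM in RAG1-/- Sgo1-/+.

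Ppbp and Pf4 are stored in platelet granules and neighbour each other on chromosome 5. Ppbp had 24.6, 23.4 and 24.2 CPM in RAG1-/- and 35.6, 19.8 and 30.0 CPM in RAG1-/- Sgo1-/+, a log2 fold change of 0.24 (SE 0.21, adjusted P = 0.875). Pf4 had 11.5, 19.4 and 17.1 CPM in RAG1-/- and 19.2, 11.3 and 13.7 CPM in RAG1-/- Sgo1-/+, a log2 fold change of -0.11 (SE 0.27, adjusted P = 0.966). Neither gene separated the groups. Of 13 platelet markers, 1 was higher at an unadjusted P under 0.05, Gp5, a subunit of the von Willebrand factor receptor, with a log2 fold change of 1.04 (SE 0.42, adjusted P = 0.832), and the list summed to 53.1 to 71.9 CPM in RAG1-/- and 67.1 to 93.6 CPM in RAG1-/- Sgo1-/+.

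Ccl6 and Ccl9 are CCR1 ligands of the mouse that macrophages and other myeloid cells make at rest. Ccl6 had 301, 156 and 138 CPM in RAG1-/- and 205, 140.0 and 914 CPM in RAG1-/- Sgo1-/+, which is 2931 reads in replicate 6. Ccl9 had 21.7, 21.4 and 26.8 CPM in RAG1-/- and 18.8, 24.5 and 141 CPM in RAG1-/- Sgo1-/+. Replicates 4 and 5 lay within or below the RAG1-/- range for both genes, and only replicate 6 lay above it, 3.03-fold over the next library for Ccl6 and 5.26-fold for Ccl9. The log2 fold change stood at 1.07 (SE 0.60, adjusted P = 0.832) for Ccl6 and 1.36 (SE 0.63, adjusted P = 0.832) for Ccl9 by edgeR, and the exact permutation P on CPM was 0.6 and 0.7, two-sided, where 3 against 3 cannot go below 0.1. Without replicate 6 the changes turned to -0.20 and -0.11, with adjusted P of 0.947 and 0.958.

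The 2 genes lie next to each other on the minus strand of chromosome 11, in a run that holds Ccl5, Ccl9, Ccl6, Ccl3 and Ccl4 in that order. Their promoters, from 250 bases before to 50 bases after the RefSeq start, are printed because the pair was highest in the same library. Capitals mark bases inside runs of at least 11 that both promoters hold.
Ccl6 promoter, GRCm38.p6 chr11:83593038-83593337, minus strand: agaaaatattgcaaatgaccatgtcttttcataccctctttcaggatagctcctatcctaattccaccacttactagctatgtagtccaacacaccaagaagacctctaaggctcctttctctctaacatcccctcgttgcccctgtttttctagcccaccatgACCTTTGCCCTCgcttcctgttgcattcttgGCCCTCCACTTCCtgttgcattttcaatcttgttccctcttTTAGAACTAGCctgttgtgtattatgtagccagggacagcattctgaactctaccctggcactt
Ccl9 promoter, GRCm38.p6 chr11:83578587-83578886, minus strand: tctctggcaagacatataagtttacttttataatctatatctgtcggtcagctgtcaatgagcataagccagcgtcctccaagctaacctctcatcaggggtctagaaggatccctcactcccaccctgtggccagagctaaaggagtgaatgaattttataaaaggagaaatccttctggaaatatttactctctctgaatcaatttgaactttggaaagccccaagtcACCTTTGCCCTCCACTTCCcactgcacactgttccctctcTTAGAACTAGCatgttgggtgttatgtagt
Such runs covered 36 bases in Ccl6 and 30 bases in Ccl9. A run of 11 bases, TTAGAACTAGC, begins 14 bases before the Ccl6 start and 20 bases after the Ccl9 start, and was found on either strand in the promoters of 4 of 27025 genes (0.0148%). That count includes Ccl6 and Ccl9 themselves, and the run was picked because both hold it. A shared run describes these letters only, and the promoters' activity was not measured.

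Ccl3 and Ccl4, known as macrophage inflammatory proteins, were sparse. Ccl3 had 7, 4 and 10 reads in RAG1-/- against 4, 4 and 18 in RAG1-/- Sgo1-/+, so that its 5.61 CPM in replicate 6 exceeded the 0.74 to 1.51 CPM of the others. Ccl4 had 14, 1 and 4 reads in RAG1-/- against 0, 2 and 2 in RAG1-/- Sgo1-/+. Ccl5, a product of natural killer and T cells, had 13.5, 6.26 and 6.36 CPM in RAG1-/- and 4.85, 13.3 and 9.36 CPM in RAG1-/- Sgo1-/+, a log2 fold change of 0.06 (SE 0.42, adjusted P = 0.990). The neighbours of Ccl6 and Ccl9 thus did not all follow the pair, Ccl5 and Ccl4 being highest in replicate 1. Of 12 natural killer markers, 1 (Gzma, granzyme A) was lower at an unadjusted P under 0.05 and the list summed to 38.2 to 87.8 CPM in RAG1-/- and 34.6 to 56.3 CPM in RAG1-/- Sgo1-/+.

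The eotaxins, which call eosinophils through CCR3, went different ways. Ccl24, an eotaxin of macrophages, had 4, 0 and 8 reads in RAG1-/- against 12, 0 and 46 in RAG1-/- Sgo1-/+. Its 14.4 CPM in replicate 6 was 5.92-fold above the next library, replicate 4, while replicate 5 had no read and overlapped RAG1-/-. The log2 fold change stood at 3.18 with an SE of 1.35 (unadjusted P = 0.0402, adjusted P = 0.832), and it was 1.06 without replicate 6 (unadjusted P = 0.470), while the unadjusted P was 0.0824 without replicate 1 and 0.0887 without replicate 2. By edgeR it was 0.0384 without replicate 3, 0.0382 without replicate 4 and 0.00466 without replicate 5, with an adjusted P of 0.594 or more in each. With all libraries kept the unadjusted P was 0.148 by DESeq2 and 0.496 by limma-voom, and the gene was not tested under filterByExpr. Ccl11, an eotaxin of fibroblasts and smooth muscle, had 4.48, 4.04 and 4.84 CPM in RAG1-/- and 3.23, 2.96 and 2.50 CPM in RAG1-/- Sgo1-/+. All 3 RAG1-/- libraries lay above all 3 RAG1-/- Sgo1-/+ libraries, with a log2 fold change of -0.61 (SE 0.37, unadjusted P = 0.131, adjusted P = 0.840, exact permutation P = 0.1). It ranged from -0.69 to -0.53 over the alternatives. The RAG1-/- Sgo1-/+ libraries held 8 to 16 Ccl11 reads, so the separation rests on few reads. Ccr3 had no read in any library. Of 10 fibroblast markers, 1 (Lum, a proteoglycan of collagen matrix) was lower at an unadjusted P under 0.05.

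**Figure D2:**
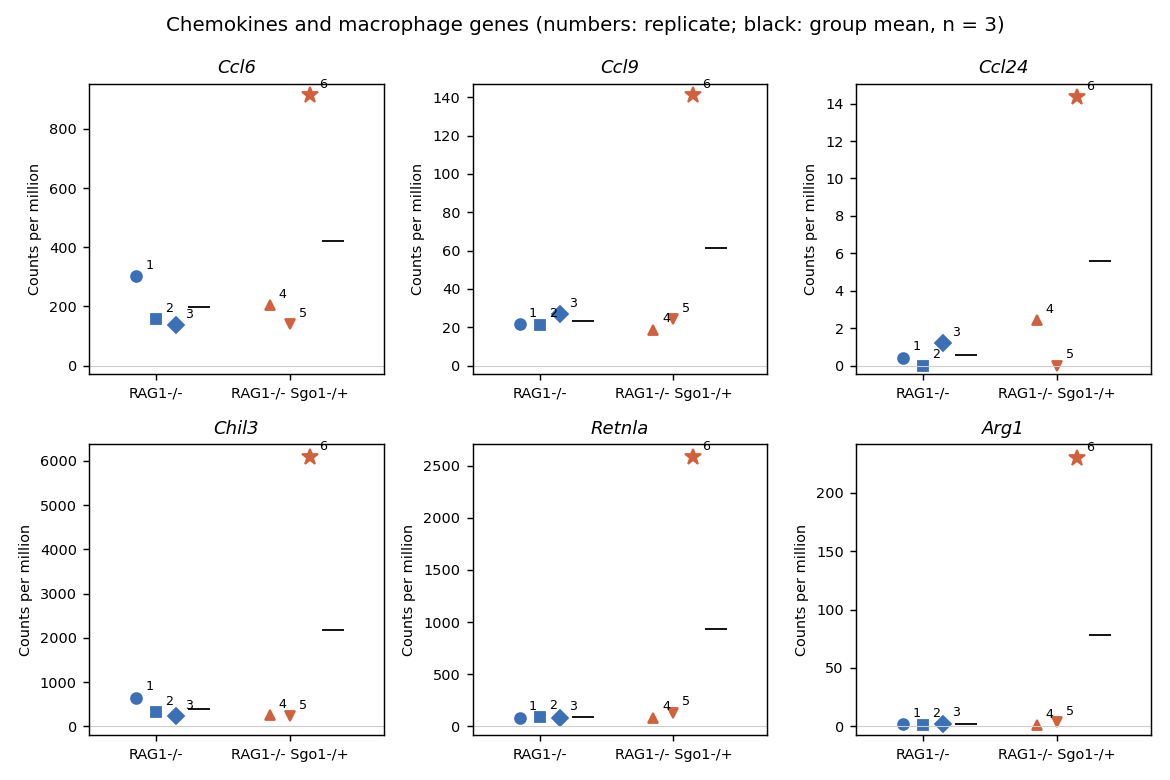
CPM per library of the chemokines Ccl6, Ccl9 and Ccl24 and of the macrophage genes Chil3, Retnla and Arg1, each on its own linear axis, with numbers giving the replicate and a black line the group mean (n = 3). Replicate 6 stands above every other library in all 6 panels, at 914 CPM for Ccl6 and 6083 CPM for Chil3, and replicates 4 and 5 lie with or near the RAG1-/- libraries.

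Macrophage genes were high in the same library as these 3 chemokines. Chil3, a chitinase-like protein of alveolar macrophages, was at 6083 CPM in replicate 6 and at 238 to 651 CPM in the other libraries. Retnla and Arg1, hallmarks of alternative macrophage activation, were at 2580 and 229.9 CPM in replicate 6 and at 83.6 to 133 and 1.41 to 3.70 CPM elsewhere. Of the 11 alveolar macrophage markers, 8 were highest in replicate 6 and 3 of these were at least 4-fold above every other library, and at an unadjusted P under 0.05 3 were higher in RAG1-/- Sgo1-/+ (Itgax, Ctsk and Chil3) and 1 was lower. The lower marker was Siglecf, a defining receptor of these cells. It was at 9.61, 11.3 and 9.08 CPM in RAG1-/- and at 4.44, 5.93 and 6.24 CPM in RAG1-/- Sgo1-/+, without overlap. Its lower level was thus not particular to replicate 6. The 10 markers of monocytes and interstitial macrophages summed to 576 CPM in replicate 6 and 462 to 505 CPM elsewhere. Of 11 type 2 and alternative activation genes, 8 were tested, 2 were higher at an unadjusted P under 0.05 (Arg1 and Retnla) and 4 were highest in replicate 6. The interleukin genes Il4 and Il13, which drive that activation, and Il5 had at most 0.62 CPM in any library. The part of macrophage number or state in the chemokine levels was not tested.

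Ccl2, Ccl7, Ccl8 and Ccl12 bind CCR2 and bring monocytes out of the blood. Ccl2 had 1.60, 1.62 and 2.27 CPM in RAG1-/- and 0.20, 1.85 and 7.49 CPM in RAG1-/- Sgo1-/+. Ccl7 had 2.35, 1.21 and 2.27 CPM in RAG1-/- and 1.82, 1.85 and 8.73 CPM in RAG1-/- Sgo1-/+. Again replicate 6 was the library above the others, with 24 and 28 reads. Ccl8 had 1.07, 4.85 and 4.54 CPM in RAG1-/- and 2.02, 3.70 and 6.86 CPM in RAG1-/- Sgo1-/+, a log2 fold change of 0.26 (SE 0.63, adjusted P = 0.962). Ccl12 had 2 to 9 reads per library. None of the 4 separated the groups, and Ccr2 itself had 52.2 to 83.7 CPM in RAG1-/- and 57.0 to 115 CPM in RAG1-/- Sgo1-/+ (log2 fold change of 0.23, SE 0.26, adjusted P = 0.897).

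Ccl22 and Ccl17 are the ligands of CCR4, made by dendritic cells and by macrophages under type 2 cytokines, and they flank Cx3cl1 on chromosome 8. Ccl22 had 8.97, 6.06 and 8.17 CPM in RAG1-/- and 9.70, 18.2 and 20.3 CPM in RAG1-/- Sgo1-/+. Each RAG1-/- Sgo1-/+ library lay above each RAG1-/- library, replicate 4 only just and replicates 5 and 6 by a wide margin. The means were 7.73 ± 1.50 CPM (SD, n = 3) and 16.0 ± 5.60 CPM (SD, n = 3), a log2 fold change of 1.03 with an SE of 0.31, or 2.04-fold. The unadjusted P was 0.00756 and the adjusted P 0.832 by edgeR's quasi-likelihood test, and the exact permutation P was 0.1, the smallest the design allows. The change ranged from 0.70 to 1.29 and the adjusted P from 0.574 to 0.998 over the alternatives, with the lowest change when replicates 2 and 6 were both left out (unadjusted P = 0.0755). With 1 replicate left out the unadjusted P by edgeR ran from 0.000762 (without replicate 4) to 0.0336 (without replicate 5).

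Ccl17 had 7.58, 4.24 and 9.99 CPM in RAG1-/- and 7.68, 18.2 and 10.9 CPM in RAG1-/- Sgo1-/+. Here replicate 5 was highest and replicate 4 lay inside the RAG1-/- range, for a log2 fold change of 0.74 (SE 0.39, adjusted P = 0.832). Among the 28 members with a promoter given by RefSeq, Ccl17 alone held the motif TTCNNNNGAA, the form bound by STAT6, on either strand. In Ccl17 it began 154 bases before the start. That motif was in the promoters of 8.01% of 27025 genes. The site is shown with 10 bases on each side and the motif in capitals.
Ccl17 STAT6 motif, GRCm38.p6 chr8:94810289-94810318, plus strand: cgagtgaccaTTCTCTGGAAagccacaaac
A match describes the letters only. Ccr4, the receptor of both ligands, had at most 0.62 CPM in any library and was not tested. Of 10 dendritic cell markers, 1 was higher at an unadjusted P under 0.05, Fscn1, an actin bundler of mature dendritic cells, at 10.3, 7.68 and 10.3 CPM in RAG1-/- and 11.3, 14.5 and 20.6 CPM in RAG1-/- Sgo1-/+ (log2 fold change of 0.69, SE 0.27, adjusted P = 0.832). The list summed to 104 to 129 CPM in RAG1-/- and 97.0 to 144 CPM in RAG1-/- Sgo1-/+.

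Ccl20, the CCR6 ligand of epithelium, had 18, 4 and 20 reads in RAG1-/- against 6, 22 and 12 in RAG1-/- Sgo1-/+, a log2 fold change of 0.61 (SE 0.64, adjusted P = 0.894). All 3 tested ligands of CCR4 and CCR6 thus had fitted changes above 0 without an adjusted call.

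**Figure D3:**
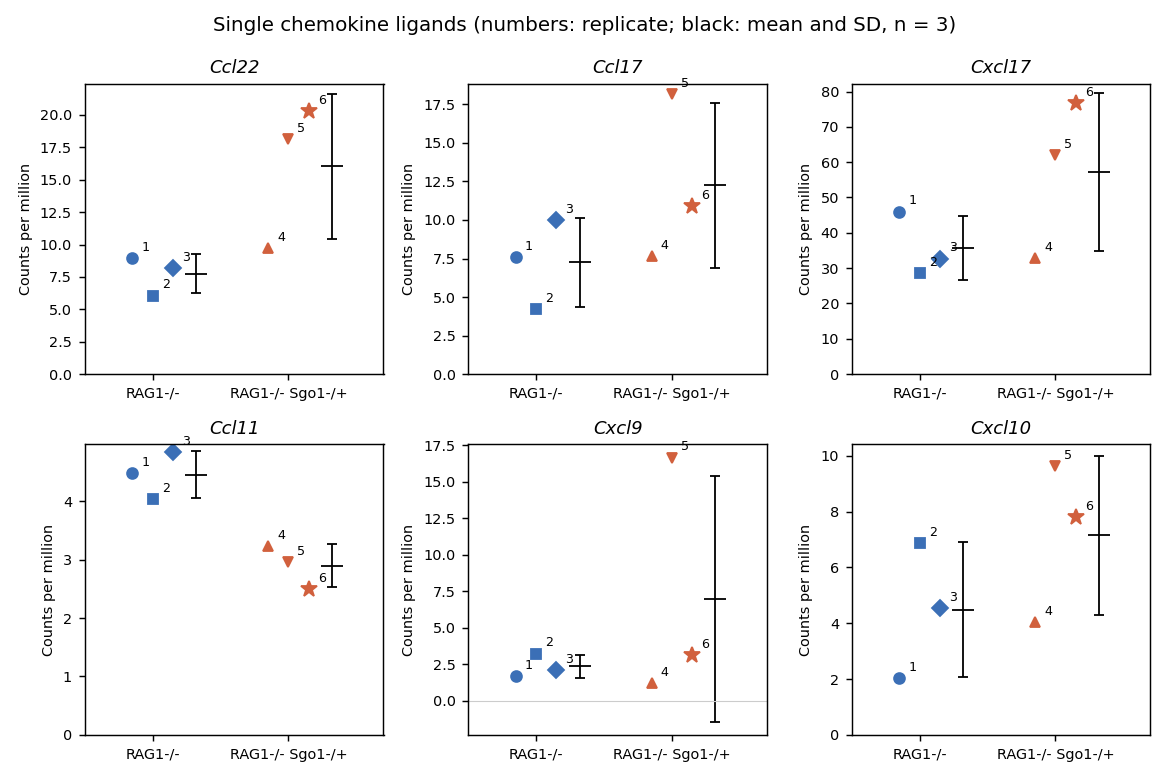
CPM per library of Ccl22, Ccl17, Cxcl17, Ccl11, Cxcl9 and Cxcl10, each on its own linear axis, with numbers giving the replicate and black bars the mean and SD (n = 3 per group). The groups separate for Ccl22 (6.06 to 8.97 against 9.70 to 20.3 CPM) and Ccl11 (4.04 to 4.84 against 2.50 to 3.23 CPM), and replicate 5 alone is high for Cxcl9 (16.7 CPM).

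The CXCR3 ligands are induced by interferon gamma and recruit activated T and natural killer cells. Cxcl9 had 1.71, 3.23 and 2.12 CPM in RAG1-/- and 1.21, 16.7 and 3.12 CPM in RAG1-/- Sgo1-/+. Replicate 5, with 90 reads, was 5.16-fold above the next library, and the other RAG1-/- Sgo1-/+ libraries lay at or below RAG1-/- replicate 2. The log2 fold change stood at 1.64 (SE 0.79, adjusted P = 0.832), the exact permutation P was 0.7, and without replicate 5 the change turned to -0.15 (adjusted P = 0.985). Cxcl10 had 2.03, 6.87 and 4.54 CPM in RAG1-/- and 4.04, 9.63 and 7.80 CPM in RAG1-/- Sgo1-/+, a log2 fold change of 0.71 (SE 0.49, adjusted P = 0.855). The groups overlapped for both. Among 14 interferon-inducible genes, 12 were tested and 0 passed an unadjusted P under 0.05, and their sum in replicate 5 (583 CPM) lay within the range of the other libraries (524 to 663 CPM). Cxcr3 had 0.40 to 3.12 CPM. Members with 1 library at least 4-fold above every other at 5 CPM or more were thus Ccl9, Ccl24 and Cxcl9, which is 3 of 36 (8.33%), where 0.656% of all genes tested met that rule.

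Cxcl17 and Cxcl14 are mucosal and epithelial ligands whose receptors are less settled. Cxcl17 had 46.0, 28.5 and 32.7 CPM in RAG1-/- and 32.7, 62.1 and 76.7 CPM in RAG1-/- Sgo1-/+. Replicates 5 and 6 exceeded every RAG1-/- library and replicate 4 matched RAG1-/- replicate 3. The means were 35.7 ± 9.15 CPM and 57.2 ± 22.4 CPM (SD, n = 3 each), a log2 fold change of 0.66 with an SE of 0.29 (unadjusted P = 0.0441 and adjusted P = 0.832 by edgeR). By edgeR the unadjusted P was 0.184 without replicate 6, 0.133 without replicate 2, 0.119 without replicate 5 and 0.114 without replicate 3. It was 0.0142 without replicate 1 (adjusted P = 0.702) and 0.00166 without replicate 4 (adjusted P = 0.574). With all libraries kept the unadjusted P was 0.0512 with TMM factors, 0.0904 by limma-voom and 0.024 by DESeq2. Cxcl14 had 79.2, 80.8 and 62.1 CPM in RAG1-/- and 87.1, 66.9 and 55.8 CPM in RAG1-/- Sgo1-/+, a log2 fold change of -0.08 (SE 0.18, adjusted P = 0.961) that lay between -0.44 and 0.28 at 2 SE. Of the 12 epithelial markers, Foxj1, the regulator of ciliated cells, was higher at an unadjusted P under 0.05, with 286, 165 and 169 CPM in RAG1-/- and 241, 383 and 301 CPM in RAG1-/- Sgo1-/+ (log2 fold change of 0.58, SE 0.24, adjusted P = 0.832). Replicates 5 and 6 were thus also the highest libraries for Foxj1, and its part in the Cxcl17 level was not tested.

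Cxcl12, which holds leukocytes and progenitors through CXCR4, had 199, 201 and 165 CPM in RAG1-/- and 177, 209 and 164 CPM in RAG1-/- Sgo1-/+. Its range over the 6 libraries was 1.27-fold, and the log2 fold change was -0.04 with an SE of 0.14 (adjusted P = 0.977), between -0.32 and 0.24 at 2 SE. Cxcr4 had 33.9 to 46.9 CPM (log2 fold change of -0.09, SE 0.15) and Ackr3, the scavenger of Cxcl12, 61.5 to 89.3 CPM. Cxcl13, the CXCR5 ligand of B cell follicles, had 2.56, 8.08 and 9.08 CPM in RAG1-/- and 6.46, 5.93 and 5.61 CPM in RAG1-/- Sgo1-/+, so that RAG1-/- replicate 1 lay lowest. Its level in replicate 2, the library with B cell reads, was not the highest. Cxcr5, the B cell receptor for it, was at 4.85 CPM in replicate 2 and at 0.61 to 1.11 CPM in the others.

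Cx3cl1 and Cxcl16 are made as membrane-bound proteins that tether cells before they are shed. Cx3cl1, the ligand of Cx3cr1 on monocytes, had 57.4, 61.8 and 45.3 CPM in RAG1-/- and 54.1, 61.9 and 55.5 CPM in RAG1-/- Sgo1-/+, a log2 fold change of 0.06 (SE 0.15, adjusted P = 0.962). Cxcl16, the ligand of Cxcr6 on lymphocytes, had 121, 100.2 and 115 CPM in RAG1-/- and 138, 101 and 123 CPM in RAG1-/- Sgo1-/+, a log2 fold change of 0.10 (SE 0.15, adjusted P = 0.928). Both groups overlapped for each gene, and at 2 SE the changes lay between -0.23 and 0.36 for Cx3cl1 and between -0.19 and 0.40 for Cxcl16. Xcl1, a product of natural killer and T cells, had 2, 0 and 6 reads in RAG1-/- against 0, 8 and 0 in RAG1-/- Sgo1-/+, a level near the floor of detection (log2 fold change of 0.49, SE 1.43, adjusted P = 0.972), and its receptor Xcr1 had 3.23 to 15.2 CPM.

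The CCR7 ligands guide dendritic cells and T cells into lymphatics. The mouse carries several near-identical Ccl21 genes, and how reads shared by the copies were counted is not given in the sources used here, so their values are uncertain gene by gene. Over 399 coding bases Ccl21a and Ccl21b differed by 2 substitutions (99.5% identity), T84A and C194T, counted from the first base of the start codon with the Ccl21a base first. The stretches around C194T are shown, with the differing base in capitals.
Ccl21a around coding base 194: ggcaatcctgttctCaccccggaagcact
Ccl21b around coding base 194: ggcaatcctgttctTaccccggaagcact
Ccl21a had 19.9, 9.70 and 12.1 CPM in RAG1-/- and 15.8, 19.5 and 23.4 CPM in RAG1-/- Sgo1-/+, with overlap and a log2 fold change of 0.46 (SE 0.28, adjusted P = 0.840). Ccl21b had 6.47 to 11.3 CPM in RAG1-/- and 10.4 to 16.8 CPM in RAG1-/- Sgo1-/+, and Ccl21c had 8.08 to 10.5 and 8.48 to 13.7 CPM. Their log2 fold changes were 0.59 (SE 0.32) and 0.25 (SE 0.26). All 3 copies were lowest in replicate 2. Ccl19 had 4, 6 and 0 reads in RAG1-/- against 0, 2 and 0 in RAG1-/- Sgo1-/+ and also has near copies. Ccr7 had 2.56 to 7.07 CPM in RAG1-/- and was highest in replicate 5 (log2 fold change of 0.63, SE 0.49, adjusted P = 0.869), and of 7 lymphatic endothelial markers 6 were tested and 0 passed an unadjusted P under 0.05.

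Ccl25, the CCR9 ligand of thymus and gut, and Ccl27a, the CCR10 ligand of skin, were low in lung. Ccl25 had 3.52, 3.23 and 3.63 CPM in RAG1-/- and 3.64, 4.08 and 1.87 CPM in RAG1-/- Sgo1-/+. Ccl27a had 4.16, 7.27 and 4.09 CPM in RAG1-/- and 2.83, 3.52 and 5.30 CPM in RAG1-/- Sgo1-/+, a log2 fold change of -0.42 (SE 0.41, adjusted P = 0.887), and its near copy Ccl27b had 2, 8 and 0 reads in RAG1-/- against 0, 0 and 2 in RAG1-/- Sgo1-/+. Both Ccl27 genes were highest in replicate 2, the library with B cell reads, and share sequence, so reads may be split between them. The receptors Ccr9 and Ccr10 had at most 2.83 and 0.81 CPM.

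**Figure D4:**
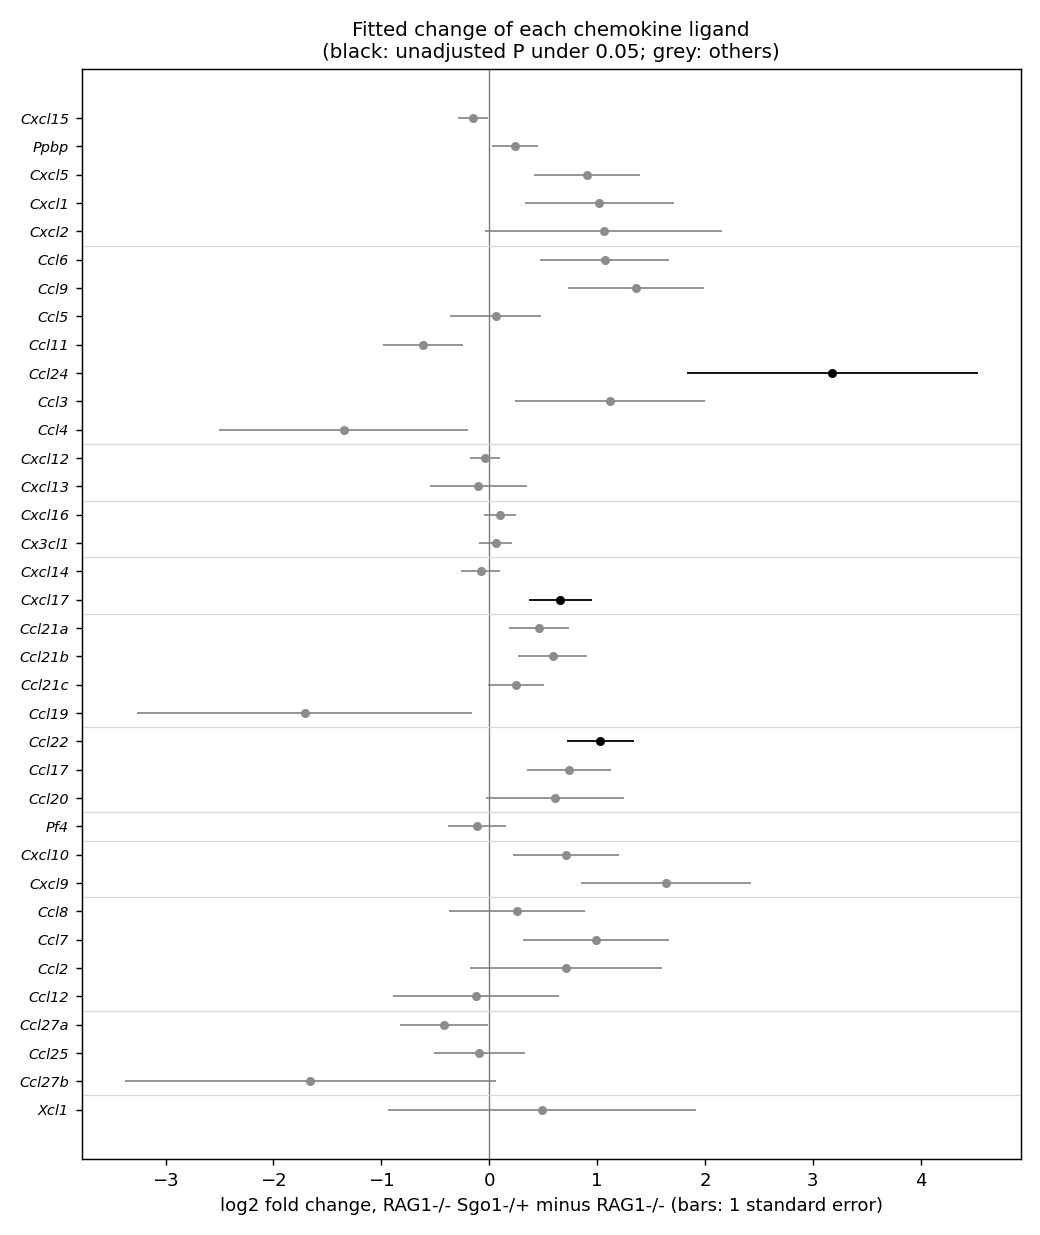
Log2 fold change (RAG1-/- Sgo1-/+ minus RAG1-/-) of the 36 tested members from the edgeR fit with bars of 1 SE, grouped by role, black at an unadjusted P under 0.05. Ccl24, Ccl22 and Cxcl17 are black at 3.18, 1.03 and 0.66, and Cxcl15, Cxcl12, Cxcl14, Cx3cl1 and Cxcl16 lie between -0.15 and 0.10 with short bars.

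Of the 23 listed receptors and scavengers, 20 were tested and 0 passed an unadjusted P under 0.05 (smallest adjusted P 0.832 by edgeR's quasi-likelihood test). Ccr1, through which Ccl6 and Ccl9 act, had 13.2, 15.8 and 15.7 CPM in RAG1-/- and 7.68, 12.2 and 39.3 CPM in RAG1-/- Sgo1-/+. It was highest in replicate 6, the library with the most Ccl6 and Ccl9. Ccrl2, a non-signalling receptor, had 26.7 to 31.5 CPM in RAG1-/- and 18.3 to 25.5 CPM in RAG1-/- Sgo1-/+ without overlap, a log2 fold change of -0.35 (SE 0.18, adjusted P = 0.832). Among 14 NF-kappaB and inflammatory cytokine genes 0 passed an unadjusted P under 0.05, and the list summed to 884 to 1059 CPM in RAG1-/- and 909 to 1177 CPM in RAG1-/- Sgo1-/+. NF-kappaB motifs were held by 7 of the 28 members with a RefSeq promoter (Ccl9, Ccl20, Ccl27a, Cxcl1, Cxcl2, Cxcl3 and Cxcl10) and by 5.14% of 27025 genes. A gene with several promoters counted if any of them held the motif. In Ccl27a the match began 30 bases after a start. Of 14 genes for glycosaminoglycans or for handling chemokines outside the cell, 1 was higher at an unadjusted P under 0.05. This was Mmp12, the macrophage elastase, at 594 CPM in replicate 6 and 3.93 to 13.0 CPM elsewhere. The 12 T cell markers summed to 56.2 CPM in replicate 2, 30.3 CPM in replicate 6 and 10.1 to 11.2 CPM elsewhere, with 11 tested and 0 at an unadjusted P under 0.05.

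**Figure D5:**
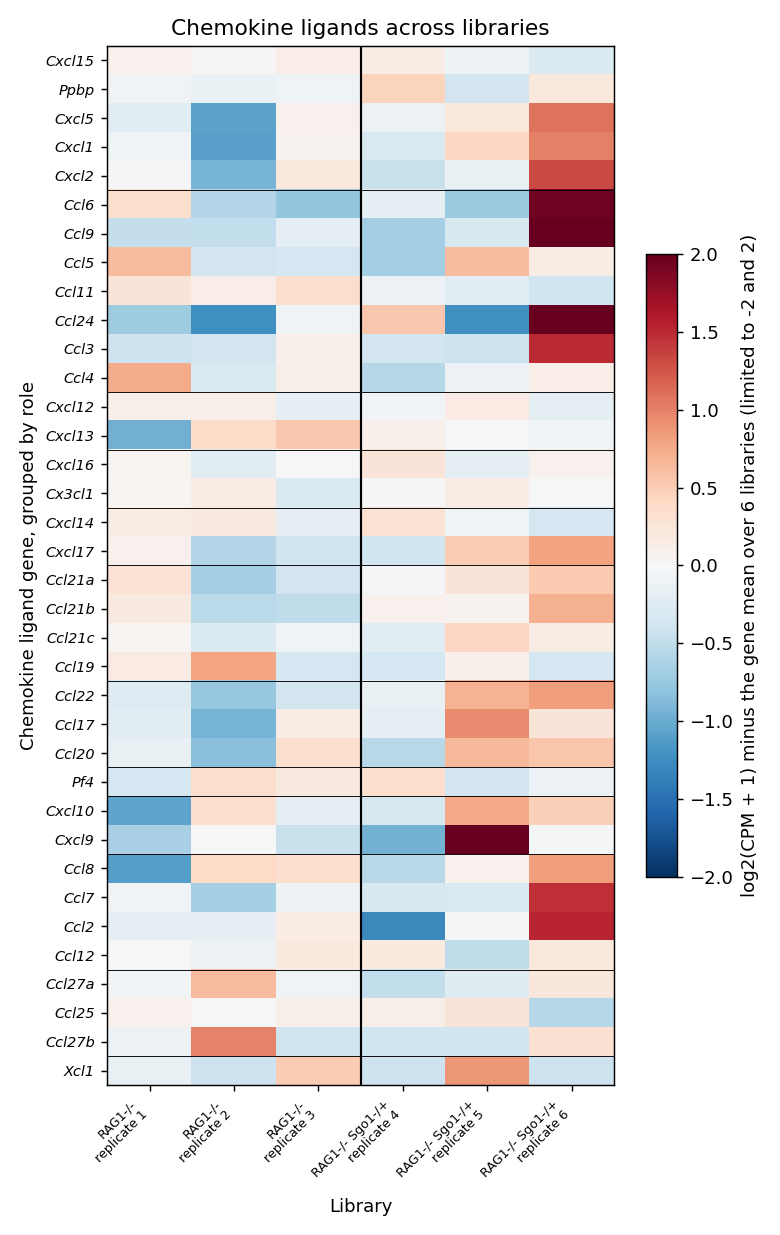
Colour map of log2(CPM + 1) minus the gene's mean over the 6 libraries, with 1 row per tested member grouped by role and 1 column per library; the scale stops at -2 and 2. Red in the replicate 6 column gathers in Ccl6, Ccl9, Ccl24, Ccl3, Ccl2 and Ccl7, while in the replicate 5 column Cxcl9 is the deepest red.

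Without the library labelled RAG1-/- replicate 2 and without replicate 6, 0 members passed the adjusted threshold and Cxcl9 alone had an unadjusted P under 0.05 (0.0404), which is 1 of 36 members where 3.52% of all genes tested did. The groups then did not overlap for 7 of 36 members, and for 32.9% of all genes, since 2 against 2 libraries separate more often. Ccl22 kept a log2 fold change of 0.70 in that setting, Ccl6 and Ccl9 had -0.35 and -0.16, and Ccl24 had 0.58.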

How the data were processed

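RNA-seq libraries (Illumina TruSeq v2, MiSeq) of 6 lungs were compared. The authors deposited raw read counts per gene (25860 genes, GeneSifter, an earlier mouse genome build), and the submitters' notes name BWA and edgeR. A second deposited table, of the authors' own group means, errors, ratios, P values and ontology terms, was not used. How reads matching several genes were counted is not given in the sources used here. Entrez IDs were matched to symbols (93.0%). Genes with at least 10 counts were fitted with edgeR 4.0.16 (quasi-likelihood, library size equal to the total count, Benjamini-Hochberg adjustment over 17231 genes) in R 4.3.3. The SE is the absolute log2 fold change over the square root of F. Each gene was called at an adjusted P under 0.05 and 2-fold. CPM of single genes were compared by two-sided exact permutation (10 splits). Alternatives were TMM, DESeq2 size factors, DESeq2 1.42.0, limma-voom (limma 3.58.1), other filters, halved counts and each library left out. Leaving out replicates 2 and 6 together was added after seeing the data. Between 63.5% and 69.0% of nonzero counts were even, for which halved counts were tried. Every member was named, with full statistics for those at an unadjusted P under 0.05, with separated groups, with 1 library far above the rest or highest in their role. Of each list, at most 3 genes were to be named, by lowest P among those at an unadjusted P under 0.05. Receptors of named members were named besides. Ccrl2, and Ly6g and Mpo as genes without a read, were named outside this rule. Chil3, Scgb1a1, Xist and the interleukins were named after their values were seen. Members and lists were chosen with earlier results of these data known. The fit was tested on simulated data. Libraries of a group differed beyond sampling noise (chi-square per degree of freedom 9.13 to 20.5).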

Additional observations from a re-analysis of the deposited data

How the results depend on the processing

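No paired analysis was made because the labels give no pairing between mice of the 2 groups. No member was called at the adjusted threshold under any alternative. The number of members at an unadjusted P under 0.05, 3 of 36 in the edgeR fit, was 5 without a filter, 2 with TMM factors, 2 with filterByExpr and 1 by limma-voom. It ran from 1 to 8 when each replicate was left out (8 without replicate 4, 5 without replicate 1 or 5, 1 without replicate 2). Without replicates 2 and 6 it was 1. The share of all genes tested at that level moved as well. It was 5.66% in the edgeR fit, 5.33% without a filter, 5.5% with TMM factors, 5.87% with filterByExpr and 4.86% by limma-voom. It was 8.32% without replicate 4, 7.06% without replicate 1, 5.41% without replicate 5 and 3.49% without replicate 2. Without replicates 2 and 6 the share was 3.52%. The number with separated groups, 2, ran from 2 to 10 when each replicate was left out (10 without replicate 4, 6 without replicate 1 or 5, 5 without replicate 3, 4 without replicate 6) and was 7 without replicates 2 and 6. The share of all genes tested with separated groups rose too, from 11.8% with all libraries to 26.0% without replicate 4. It was 24.3% without replicate 1, 19.4% without replicate 2 and 18.5% without replicate 3. Without replicate 5 it was 21.8%, without replicate 6 22.0%, and without replicates 2 and 6 32.9%. The median log2 fold change, 0.36, was 0.47 without a filter, 0.23 by limma-voom, 0.10 without replicates 2 and 6, and 0.051 to 0.60 when each replicate was left out (replicates 6 and 4). Of 17 genes followed over 14 alternatives (Ccl24 and Xcl1 were not tested under filterByExpr), 8 never changed sign. Without replicates 2 and 6 the sign turned for Ccl6 (-0.35), Ccl9 (-0.16), Cxcl12 (0.082), Cxcl14 (0.12) and Pf4 (0.10). With 1 replicate left out the ranges that crossed 0 were -0.20 to 1.51 for Ccl6 and -0.11 to 1.80 for Ccl9 (negative without replicate 6), -0.24 to 0.61 for Ccl8 (negative without replicate 1 or 6), -0.15 to 2.15 for Cxcl9 and -4.23 to 1.89 for Xcl1, on reads near the floor (negative without replicate 5), -0.01 to 0.22 for Cxcl16 (negative without replicate 4), -0.14 to 0.034 for Cxcl12 (positive without replicate 1, 2 or 6), -0.27 to 0.056 for Cxcl14 (positive without replicate 6) and -0.35 to 0.063 for Pf4 (positive without replicate 2 or 5). The cause was not tested. Replicate 6 had the lowest depth, which limits the sparse members.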
